A study of Mus musculus with 2 samples.

Results

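Lambda-dominant cells are B cells whose light chain transcripts come mainly from the lambda constant genes Iglc1, Iglc2 and Iglc3, and they were set against kappa-dominant cells, whose light chain transcripts come mainly from Igkc. The data are single-cell RNA-seq counts, made with the droplet-based 10x Genomics 3′ version 3 chemistry, from 2 libraries of germinal center B cells. The cells were sorted from spleens of C57BL/6J mice aged 8 weeks that had been immunized with SRBC, the usual abbreviation for sheep red blood cells, and no genetic change or further agent is named. The samples form 1 group, so lambda and kappa cells were compared within each library, and the labels do not say how many animals were used or whether the 2 libraries came from separate animals. The 2 libraries held 8765 and 7868 barcodes with 75121538 and 61874342 unique molecular identifiers (UMIs, the count of distinct captured transcripts). Barcodes were kept above 3 limits, a minimum of 500 genes, a minimum of 1000 UMIs and a mitochondrially encoded share of no more than 40% of UMIs, which left 8247 and 7315 barcodes. Of these, 6952 and 5832 had at least 20 UMIs of the 4 light chain constant genes. Cells were chosen by these raw counts. A cell was called lambda when the Iglc genes gave at least 80% of those UMIs and kappa when Igkc gave at least 80%. This rule found 150 lambda cells, 79 in library 1 and 71 in library 2, and 11520 kappa cells, 6238 in library 1 and 5282 in library 2, out of 16633 barcodes in all. The other 1114 cells had a mixed share and entered no comparison. Between the libraries 22 barcodes were shared, 9 of them among called cells and 0 among lambda cells.

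Each B cell carries an antibody made of paired heavy and light chains, and the light chain is either kappa or lambda. In a developing B cell the kappa locus usually rearranges first, and the lambda locus rearranges mostly where kappa rearrangement has failed or gave a self-reactive receptor, so that 1 light chain type is kept in most cells. Laboratory mice use lambda far less often than kappa, with few lambda variable segments. Iglv1 lies upstream of Iglc3 and Iglc1 and joins mostly to these, while Iglv2 and Iglv3 lie upstream of Iglc2 and join mostly to it. In the germinal center, activated B cells divide and mutate their receptor genes in the dark zone, marked by the chemokine receptor Cxcr4, and are selected in the light zone, marked by Cd83 and Cd86. Class switching replaces the IgM heavy chain by another isotype, such as IgG1.

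The 3 lambda constant genes lie on mouse chromosome 16 on the minus strand and Igkc on chromosome 6 on the plus strand (mm10, GENCODE M21). The coding ends are shown because the lambda class rests on counts that tell these genes apart, and they show how far the genes differ. Each line gives the last 120 coding bases, stop codon included, with capitals in Iglc2 and Iglc3 where the base differs from Iglc1 at the same distance from the stop codon. The windows are chr16:19061752-19061871 for Iglc1, chr16:19198536-19198655 for Iglc2, chr16:19065365-19065484 for Iglc3 and chr6:70726638-70726757 for Igkc.
Iglc1: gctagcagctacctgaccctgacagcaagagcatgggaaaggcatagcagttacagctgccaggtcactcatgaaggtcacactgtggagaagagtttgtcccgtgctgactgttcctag
Iglc2: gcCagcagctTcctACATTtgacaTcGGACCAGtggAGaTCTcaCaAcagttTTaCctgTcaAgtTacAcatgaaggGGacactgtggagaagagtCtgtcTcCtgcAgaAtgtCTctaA
Iglc3: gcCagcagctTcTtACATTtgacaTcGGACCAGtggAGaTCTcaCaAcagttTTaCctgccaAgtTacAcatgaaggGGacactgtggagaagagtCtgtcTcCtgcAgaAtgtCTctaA
Igkc: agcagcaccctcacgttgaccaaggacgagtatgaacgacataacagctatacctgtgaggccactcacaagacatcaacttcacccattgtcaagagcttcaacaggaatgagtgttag
Iglc2 and Iglc3 each differed from Iglc1 at 39 of these 120 bases and from each other at 2. Over the whole coding part, aligned with gaps, Iglc2 and Iglc3 were 96.2% identical with a longest shared run of 79 bases, against 73.7% for Iglc1 and Iglc2 and 57.0% for Iglc1 and Igkc. Counts of Iglc2 and Iglc3 are therefore less certainly split between the pair than counts of Iglc1 are from either.

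The values that chose the classes were these, given as a description with no test. Lambda cells were 1.25% of lambda plus kappa cells in library 1 (79 of 6317, exact Clopper-Pearson 95% interval 0.991% to 1.56%) and 1.33% in library 2 (71 of 5353, 1.04% to 1.67%), a mean of 1.29% ± 0.05 (SD, n = 2 libraries). Intervals on shares of cells cover counting error only. The median lambda cell held 44 and 40 Iglc UMIs in libraries 1 and 2 and 1 and 2 Igkc UMIs, against 3 Iglc UMIs in both libraries and 52 and 47 Igkc UMIs in the median kappa cell. In library 1, 17 of 79 lambda cells had no Igkc UMI among their light chain UMIs, as had 14 of 71 in library 2. At the threshold, 7 and 12 cells of libraries 1 and 2 lay just inside the lambda class, with an Iglc share of 80% to 85%, and 2 and 7 cells just outside it, at 75% to 80%.

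**Figure D1:**
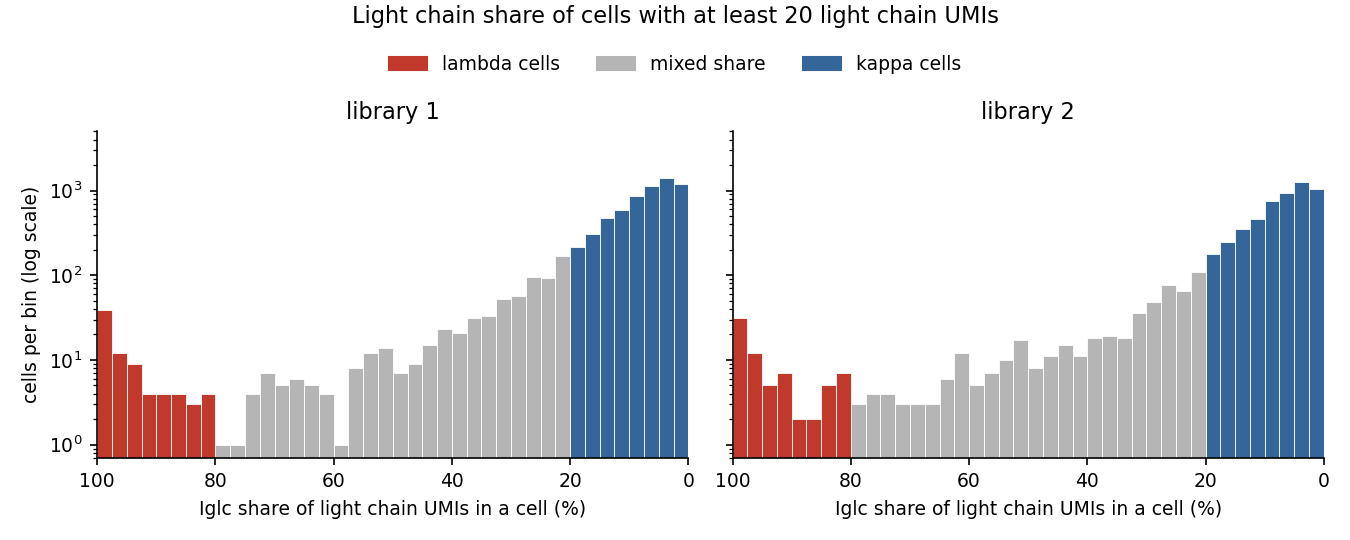
Number of cells (y axis, log scale) by the Iglc share of light chain constant UMIs in a cell (x axis, percent, drawn from high to low) for each library, with lambda cells red, mixed cells grey and kappa cells blue. Lambda cells form a small separate rise at the high end, with 51 and 43 cells at 95% or more, while cells of mixed share tail off from the kappa side.

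Iglc transcripts were not confined to lambda cells. Of all Iglc UMIs in cells with enough light chain counts, lambda cells held 10.7% and 15.3% in libraries 1 and 2 and kappa cells 58.8% and 55.9%, the rest lying in mixed cells. With kappa cells split into 4 equal groups by depth, the mean number of Iglc UMIs per cell was 1.97, 2.99, 4.82 and 14.3 from the shallowest to the deepest group of library 1, whose median depths were 3565, 5610, 8468 and 16591 UMIs. In library 2 it was 1.83, 2.70, 4.40 and 13.6, at median depths of 3575, 5403, 8006 and 15966 UMIs. Relative to all UMIs of a group, Iglc UMIs were similar in the shallower groups and somewhat more frequent in the deepest group of both libraries. In kappa cells Iglc1 made up 50.4% and 51.6% of the Iglc UMIs, and Iglc3 30.97% and 28.7%. In lambda cells Iglc1 made up 74.4% and 61.5% and Iglc3 8.0% and 15.8%. Whether the Iglc UMIs of kappa cells are free RNA in the droplets or their own transcripts was not tested.

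Within the lambda class most cells were led by Iglc1, the constant gene of the lambda-1 chain. In libraries 1 and 2, 63 of 79 and 56 of 71 lambda cells had more Iglc1 than Iglc2 or Iglc3 UMIs, 12 and 10 were led by Iglc2 and 4 and 5 by Iglc3. A stricter call, with 1 gene giving at least 80% of the Iglc UMIs, named 49 and 34 cells Iglc1, 3 and 2 cells Iglc2, and 0 and 4 cells Iglc3, and left 27 and 31 cells with no single gene. The exact 95% interval of the 0 Iglc3 cells of library 1 ended at 4.56% of its lambda cells. Among those 27 and 31 cells the medians were 22 and 37 UMIs of Iglc1, 21 and 13 of Iglc2 and 4 of Iglc3 in both libraries. Variable segments were seen in few cells, as is usual for counts taken at the 3′ end. Iglv1 had a UMI in 6 and 7 lambda cells, and all of them were led by Iglc1. Iglv3 had a UMI in 4 lambda cells of library 1, of which 3 were led by Iglc2, and in 3 of library 2, of which 1 was. No lambda cell had an Iglv2 UMI, which sets no limit on the use of Iglv2, since so few cells gave any variable segment UMI.

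**Figure D2:**
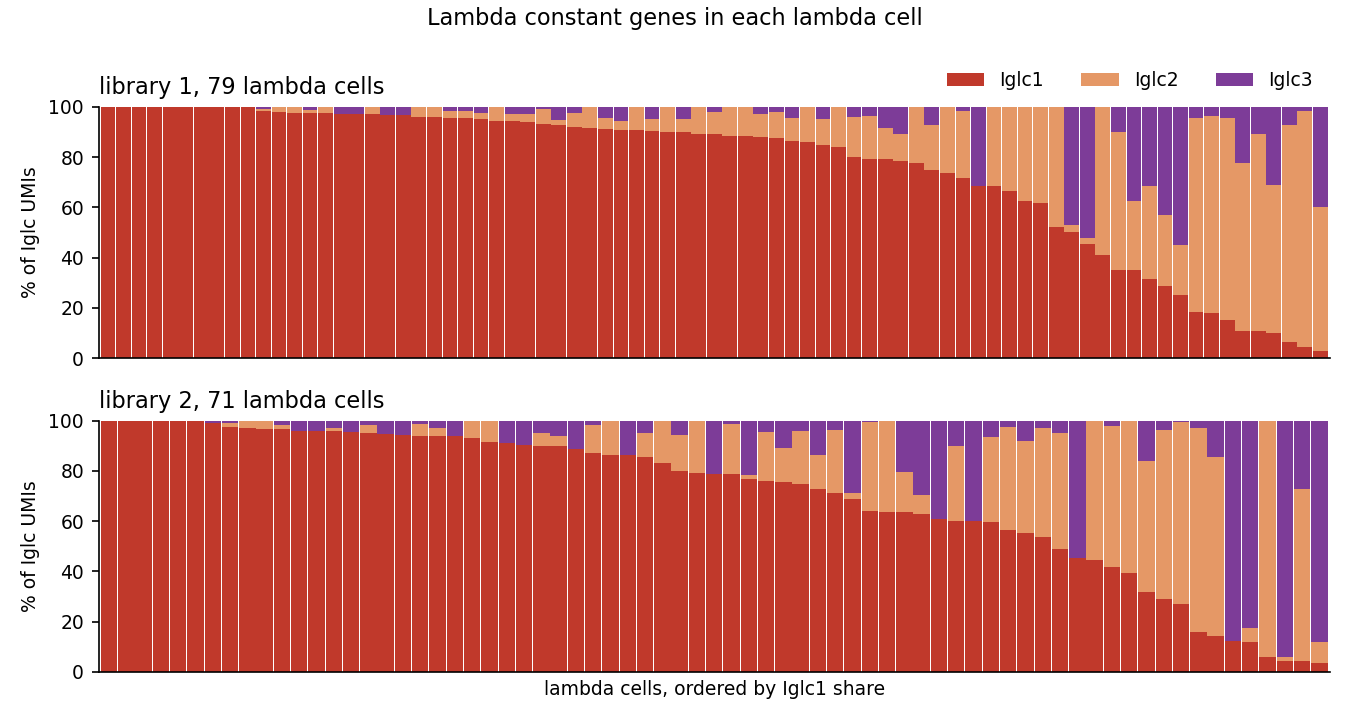
Each bar is 1 lambda cell, split into the percent of its Iglc UMIs from Iglc1, Iglc2 and Iglc3, ordered by Iglc1 share, with library 1 above library 2. Iglc1 leads in 63 of 79 and 56 of 71 cells, and cells that mix Iglc1 with Iglc2 or Iglc3 stand between the extremes.

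Both classes carried the genes of germinal center B cells. All 11 germinal center markers were above 0 in lambda cells, with a summed level of 1946 and 1846 CPM (counts scaled to the non-immunoglobulin UMIs of a class in a library), against 2254 and 2255 CPM in kappa cells. Summed over its 8 markers, the T cell list stood at 47.9 and 59.7 CPM in lambda cells and 56.7 and 62.5 CPM in kappa cells, and the macrophage list at 2.99 and 10.8 CPM in lambda cells and 5.89 and 7.53 CPM in kappa cells. The T cell markers Cd3d, Cd3e, Cd3g, Cd4, Cd8a and Cd8b1, the neutrophil markers and the macrophage markers C1qa, C1qb and C1qc were at 0 in lambda cells of both libraries. The recombination genes Rag1 and Rag2 and the surrogate light chain genes Igll1 and Vpreb1, used during early B cell development, also had 0 UMIs in all 150 lambda cells, which allows a share of cells with a UMI of up to 3.797% and 4.23% in libraries 1 and 2. They were nearly absent from kappa cells too. Vpreb1, the most frequent of them there, had a UMI in 0.27% and 0.21% of kappa cells. Their absence from lambda cells therefore shows no difference between the classes.

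The lambda cells were deeper and had a lower mitochondrial share than the kappa cells. The median lambda cell had 10566 and 8673 UMIs and 10.48% and 14.6% mitochondrial UMIs, against 6846 and 6506 UMIs and 17.0% and 19.4% in the median kappa cell. Median light chain UMIs were 47 and 41 in lambda cells and 56 and 50 in kappa cells. Lambda cells thus lay nearer the limit of 20 light chain UMIs that chose the cells. Whether that limit shaped the difference in depth was not tested. Cells above 25000 UMIs were 6 of 79 and 10 of 71 lambda cells and held 22.8% and 47.5% of that class's UMIs, whereas in kappa cells they were 367 of 6238 and 279 of 5282 and held 23.2% and 21.7%. The deepest lambda cell alone held 4.94% and 8.86% of its class. One cluster of 136 cells with S100a10, Plac8, Serpinb1a and Ccr7 among its leading genes, raised in markers of memory and naive B cells, held 2 and 6 of the lambda cells and 63 and 65 of the kappa cells. This cluster is called the memory-marker cluster. Settings that limit or match depth and mitochondrial share are given beside the results they change.

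Fewer lambda cells than kappa cells had switched to IgG. Among cells with at least 5 heavy chain UMIs of which at least 80% were IgG or at least 80% were IgM and IgD, IgG cells were 40.3% of lambda cells in library 1 (29 of 72, exact 95% interval 28.9% to 52.5%) and 41.4% in library 2 (24 of 58, 28.6% to 55.1%). The same share was 60.5% of kappa cells in library 1 (2886 of 4770, 59.1% to 61.9%) and 59.8% in library 2 (2431 of 4062, 58.3% to 61.4%). The difference was -20.2 and -18.5 percentage points, a mean of -19.3 ± 1.24 (SD, n = 2 libraries). The intervals of lambda and kappa cells did not overlap in either library, but they treat each cell as independent and cover counting error only. They did overlap after the draw on depth and mitochondrial share given below. The difference was larger than its spread between the 2 libraries, which may come from the same animals. With 2 libraries the exact two-sided sign-flip permutation test cannot go below p = 0.5, so no test was made. Seen from the other side, lambda cells were 0.995% and 0.978% of IgG cells and 2.23% and 2.04% of IgM cells in libraries 1 and 2. Cells that met neither 80% limit were left out of these shares. In library 1 they were 5.26% of lambda and 18.4% of kappa cells with at least 5 heavy chain UMIs. In library 2 they were 18.3% and 18.8%.

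The heavy chain UMIs themselves gave the same order. Ighm, the IgM heavy chain gene, made up 70.2% and 66.6% of heavy chain UMIs in lambda cells and 50.6% and 52.5% in kappa cells. Ighg1, the IgG1 gene, made up 23.4% and 25.6% in lambda cells and 39.9% and 38.6% in kappa cells. Within IgG cells no difference in subclass was detectable with this number of cells. Ighg1 led in 75.9% and 83.3% of lambda IgG cells (22 of 29 with an exact 95% interval of 56.5% to 89.7%, and 20 of 24 with one of 62.6% to 95.3%) and in 82.2% and 82.8% of kappa IgG cells.

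Isotype also moved with the light chain share inside the kappa class and with cell quality. Among kappa cells with an Iglc share of 10% to 20%, 49.9% and 52.2% were IgG, against 67.6% and 64.1% of those with an Iglc share under 5%, and the median mitochondrial share of these cells was 13.1% and 15.2% against 19.4% and 21.6%. Lambda cells with an Iglc share of 95% or more were IgG in 45.7% and 45.0%, and those nearer the threshold, at 80% to 95%, in 30.8% and 33.3% (8 of 26 and 6 of 18, exact 95% intervals 14.3% to 51.8% and 13.3% to 59.0%). Mixed cells with an Iglc share of 20% to 50%, whose light chain UMIs came mainly from Igkc, were IgG in 43.0% and 45.0%. When kappa cells were drawn to the depth and mitochondrial share of the lambda cells, the IgG share was 40.3% and 41.4% in lambda cells against 53.6% and 56.4% in the drawn kappa cells, and the mean difference was -14.2 ± 1.23 points. After this draw the exact 95% intervals overlapped in both libraries, at 28.9% to 52.5% and 28.6% to 55.1% in lambda cells and 50.7% to 56.5% and 52.9% to 59.96% in kappa cells.

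**Figure D3:**
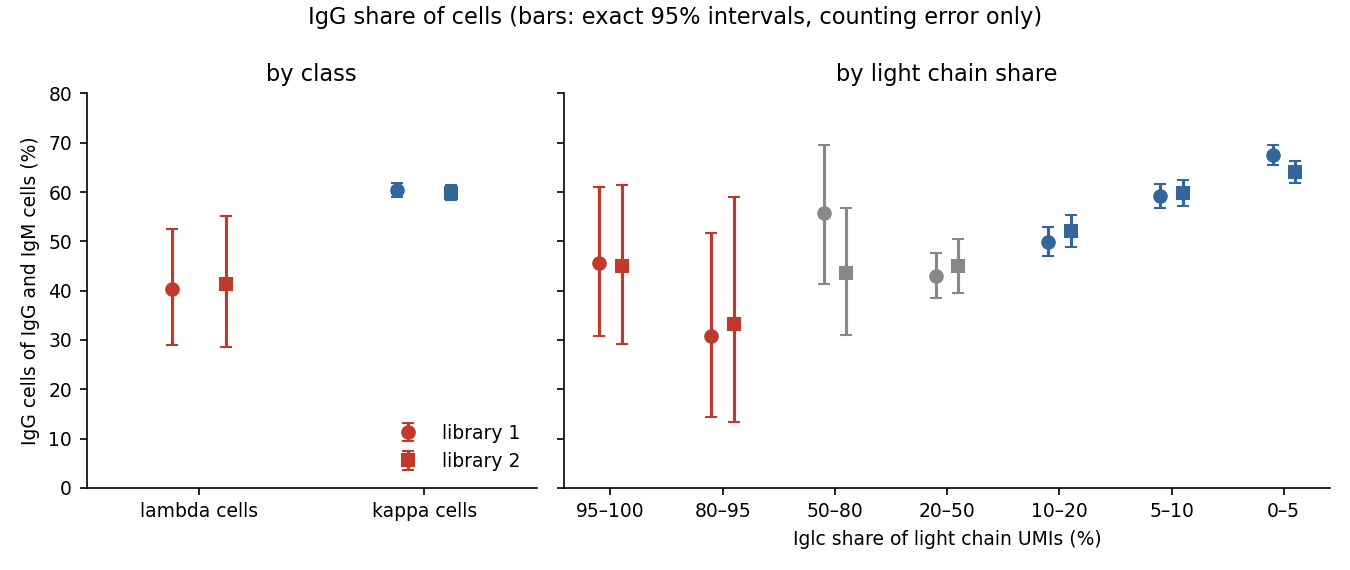
Share of IgG cells among IgG and IgM cells (y axis, percent, from 0), by class on the left and by Iglc share of light chain UMIs on the right, with lambda cells red, mixed cells grey and kappa cells blue, circles for library 1 and squares for library 2. Bars are exact 95% intervals, which cover counting error only, and lambda cells stand at 40.3% and 41.4% against 60.5% and 59.8% in kappa cells.

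No difference in zone was resolved. Each cell was thinned to 3300 non-immunoglobulin UMIs, which left out 3 and 5 lambda cells and 600 and 527 kappa cells that were shallower. A cell with a Cxcr4 UMI and none of Cd83 or Cd86 was put in the dark zone gate, and a cell with Cd83 or Cd86 and no Cxcr4 in the light zone gate. Dark zone cells were 31.6% (12 of 38) and 36.1% (13 of 36) of gated lambda cells in libraries 1 and 2, against 33.5% (966 of 2883) and 31.3% (774 of 2473) of gated kappa cells. The difference was -1.93 and 4.81 points, a mean of 1.44 ± 4.77 (SD, n = 2), and its sign differed between libraries. The gate genes themselves missed the threshold across all genes: the log2 fold change, lambda over kappa cells, was -0.30 for Cxcr4 (edgeR adjusted p = 0.236), 0.02 for Cd83 (0.966) and -0.11 for Cd86 (0.744).

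For the other genes, counts were summed over the cells of a class in each library, immunoglobulin genes were left out, and the 4 sums were tested with edgeR's quasi-likelihood test with library as a block. Of 11479 genes tested, 474 passed an adjusted p of 0.05, which is 4.13% of them, with 317 (2.76%) higher and 157 (1.37%) lower in lambda cells. All 474 had the same sign in both libraries, which is no separate support because the calls came from these same libraries. The median log2 fold change over all genes tested was -0.03. The count moved widely with the setting. It was 590 of 10367 genes (5.69%) within IgM cells and 2 of 10539 (0.019%) within IgG cells, where 542 had an unadjusted p under 0.05. It was 44 (0.428%) with every cell thinned to 3300 UMIs, 52 (0.464%) with cells of at most 25000 UMIs and 36 (0.346%) with cells of at most 10% mitochondrial UMIs. With kappa cells drawn to the isotype, depth and mitochondrial share of the lambda cells, called the matched draw, it was 57 (0.759%). This draw kept 79 and 497 kappa cells in libraries 1 and 2, or 154 and 650 without the memory-marker cluster. With 7512 genes tested in it, a call missed in the matched draw does not separate matching from fewer cells. Without the memory-marker cluster the count of called genes was 475 (4.15%), and 159 (1.94%), 71 (0.636%) and 193 (1.89%) when the matched draw, the 25000 UMI limit or the thinning was added. At a light chain share of at least 95% it was 2129 (20.2%), and without the library block 1. DESeq2 gave an adjusted p to 2800 genes and called 307 of them.

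The gene lower in lambda cells by the widest margin of those with more than a few counts lay in the kappa locus itself. Gm30211, a long intergenic noncoding RNA gene that spans Igkc on the same strand (chr6:70719074-70740554, mm10), had 9.12 and 4.78 CPM in lambda cells and 104.7 and 60.2 CPM in kappa cells of libraries 1 and 2. The groups did not overlap, and the log2 fold change was -3.57 ± 0.25 (SE, edgeR adjusted p = 2.4e-06), or 11.9-fold lower in lambda cells. At 3300 UMIs per cell it was seen in 1 of 76 and 2 of 66 lambda cells and in 26.2% and 18.7% of kappa cells. Because Gm30211 and Igkc overlap on the same strand, their reads could not be told apart with certainty, and Igkc had chosen the classes. Of its 9 and 5 lambda UMIs, 1 cell held 4 in each library. Rpia, which encodes a ribose phosphate isomerase and lies 38.8 kb downstream of Igkc, had 40.5 and 41.1 CPM in lambda cells and 70.6 and 73.7 CPM in kappa cells. Its log2 fold change was -0.82 ± 0.16 (edgeR adjusted p = 0.0104), and the lambda values lay below both kappa values.

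Further from Igkc, Eif2ak3, which encodes a stress-response kinase of the endoplasmic reticulum, lies 118 kb downstream and is named here after its value was seen. It had 33.5 and 33.4 CPM in lambda cells and 46.5 and 44.7 CPM in kappa cells, and it missed the threshold at -0.45 ± 0.18 on the log2 scale (edgeR adjusted p = 0.183). The other 5 tested genes within 1000 kb, the nearest 545 kb away, had log2 fold changes between -0.14 and 0.31, and none passed. Rpia passed in IgM cells, in the matched draw and with cells of at most 25000 UMIs, but not with cells thinned to 3300 UMIs (edgeR adjusted p = 0.761, log2 fold change -0.33), while Gm30211 passed in all of these. Around Iglc1, 20 genes within 1000 kb were tested, and 1 passed, Ranbp1, a cofactor of nuclear transport 813 kb away, which rose by 0.51. Hira, a histone chaperone gene 91.3 kb from Iglc1, stood at 0.21 on the log2 scale (edgeR adjusted p = 0.552).

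**Figure D4:**
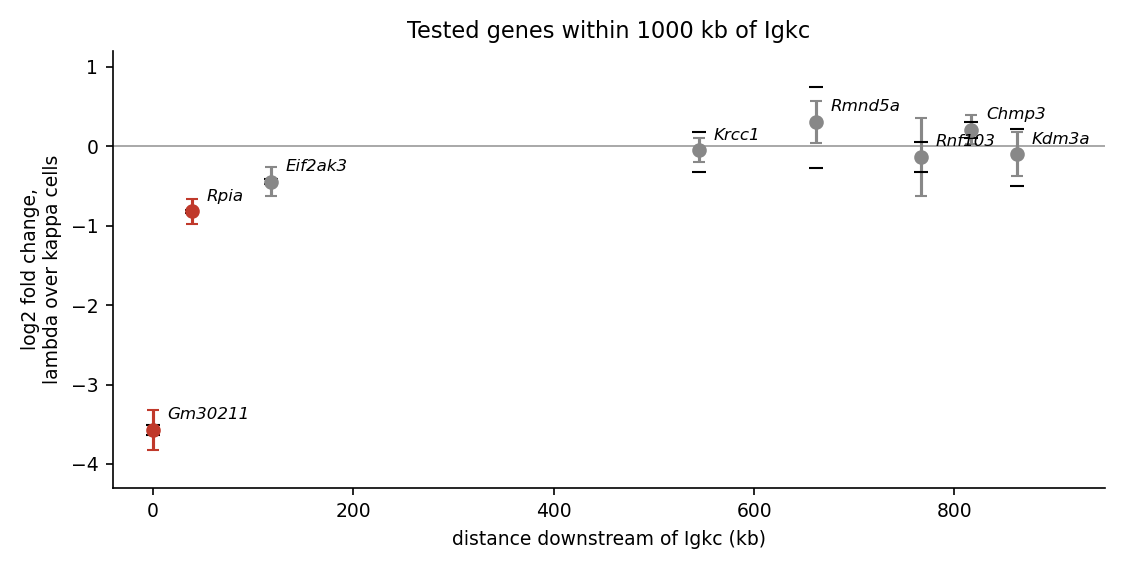
Log2 fold change, lambda over kappa cells (y axis), of the 8 tested genes within 1000 kb of Igkc by their distance downstream (x axis, kb), as the fitted value with its standard error and with the value of each library as a dash, red where the edgeR adjusted p is under 0.05. Gm30211 and Rpia are lower in lambda cells, Eif2ak3 is lower without passing, and the 5 genes further away lie between -0.14 and 0.31.

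Among genes away from the light chain loci, the 12 with the largest log2 fold change were Tmem154, Zeb2os, Cxcr3, S100a10, Tmem55a, Kctd14, Plac8, Pdlim1, Tubb2b, Pml, Rin3 and Sub1. Cxcr3 encodes a chemokine receptor for interferon-induced ligands, S100a10 a partner of annexin A2, and Plac8 a small cysteine-rich protein. They were scarce in both classes, and a single lambda cell gave over 50% of the UMIs of 7 of the 12 genes in library 1 and of 3 in library 2. Plac8 had 75.01 and 71.6 CPM in lambda cells and 9.97 and 19.6 CPM in kappa cells (log2 fold change 2.36 ± 0.22, edgeR adjusted p = 4.2e-05), but 65 of its 74 lambda UMIs in library 1 came from 1 cell and 28 of 75 in library 2. At 3300 UMIs per cell it was seen in 3 of 76 and 6 of 66 lambda cells, against 1.01% and 1.26% of kappa cells. S100a10 had 41.6 and 33.4 CPM in lambda cells and 4.11 and 7.40 CPM in kappa cells (log2 fold change 2.74 ± 0.29, edgeR adjusted p = 0.00015), with 34 of 41 and 11 of 35 lambda UMIs in 1 cell. All 16 Cxcr3 UMIs of library 1 came from 1 of the 79 lambda cells.

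Sub1, a transcriptional coactivator gene, had a UMI in 17 and 22 lambda cells, the most among the 12. It had 84.1 and 106.0 CPM in lambda cells and 28.2 and 31.3 CPM in kappa cells (log2 fold change 1.67 ± 0.14, edgeR adjusted p = 1.4e-05). One cell held 56 of its 83 lambda UMIs in library 1 and 19 of 111 in library 2, with 7 of 76 and 14 of 66 thinned lambda cells positive against 3.55% and 4.27% of kappa cells. Of the 12 genes, Plac8 and Sub1 passed with cells thinned to 3300 UMIs, 4 passed with cells of at most 25000 UMIs, and none of those tested passed in IgG cells, in which Plac8 and S100a10 had 0 lambda UMIs. DESeq2 called Sub1 and gave the other 11 no adjusted p. Of the 12 with the smallest log2 fold change, Osbpl3, Gxylt2, Txk, Slc12a3, AC161763.1, Slc4a8, Gm20342, Arhgap8, Pgap1, Tor1b, Slc15a2 and Gm47230, none passed with thinned cells or in IgG cells, and DESeq2 gave none of them an adjusted p. Their levels were low, at most 24.3 and 17.2 CPM in lambda cells and at most 40.3 and 37.1 CPM in kappa cells. Osbpl3, an oxysterol-binding protein gene, had 0 and 1 UMIs in lambda cells and 8.84 and 7.98 CPM in kappa cells. With at most 1 lambda UMI in a library, no fold is given for it.

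Some markers of germinal center and memory B cells passed, with 1 of 11 germinal center markers and 7 of 8 memory markers above 0 on the log2 scale. Of the 11 germinal center markers, 1 rose and 3 fell in lambda cells, with a median log2 fold change of -0.35 beside -0.03 over all genes: Nuggc fell by 0.60, Neil1 by 0.47 and Basp1 by 0.40, and Rgs13, a regulator of chemokine signalling, rose by 0.68. Of the 8 memory B cell markers, Cd38 and Gpr183 rose, 0 fell, and the median was 1.05. Cd38, an ectoenzyme that is low on mouse germinal center B cells, had 19.3 and 40.1 CPM in lambda cells and 9.08 and 12.1 CPM in kappa cells (log2 fold change 1.47 ± 0.25, edgeR adjusted p = 0.00404), from 9 of 79 and 14 of 71 lambda cells. Gpr183, an oxysterol receptor that guides B cell positioning, had 15.2 and 17.2 CPM in lambda cells and 5.96 and 6.42 CPM in kappa cells (log2 fold change 1.39 ± 0.31, edgeR adjusted p = 0.0198). Of 7 naive B cell markers, with a median of 0.65, Klf2, a factor of resting and recirculating lymphocytes, rose by 0.82, and Fcmr, the IgM Fc receptor gene, by 0.48. Summed over the 8 memory markers, lambda cells had 74.9 and 118.4 CPM and kappa cells 56.0 and 59.3 CPM; without the memory-marker cluster these sums were 71.9 and 82.5 CPM in lambda cells and 51.6 and 52.3 CPM in kappa cells. With cells thinned to 3300 UMIs none of these markers passed, while the medians were 0.88 for memory, 0.96 for naive and -0.19 for germinal center markers, and in thinned cells without the memory-marker cluster Basp1, Rgs13 and Fcmr passed. With cells of at most 25000 UMIs Rgs13, Klf2 and Fcmr passed and no memory marker did. In IgG cells Rgs13 alone passed, and Cd38 stood at -0.23 and Klf2 at -0.22. In the matched draw Cd38, Klf2 and the germinal center marker Gcsam passed. DESeq2 gave Cd38, Gpr183 and Klf2 no adjusted p.

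Few genes of antigen receptor signalling passed. Of 22 genes for the receptor and its assembly, 2 rose and 1 fell, with a median of -0.12, and those that rose were Mzb1 and Pdia4. In the matched draw Pdia4 alone passed, and Mzb1 stood at 0.13, while with at most 25000 UMIs Mzb1 alone passed. Of 10 inhibitory coreceptor and phosphatase genes, Cd22 and Siglecg, both sialic acid-binding inhibitors of the receptor, fell by 0.48 and 0.37, 0 rose, and the median was -0.18. Neither passed in the matched draw, where Cd22 stood at -0.22 and Siglecg at -0.036, nor in IgG cells, in thinned cells or with at most 25000 UMIs or 10% mitochondrial UMIs. Both passed in IgM cells and in all cells without the memory-marker cluster. Cd22 also passed in thinned cells without that cluster and with DESeq2. Of 11 immediate early genes, 9 were tested, 3 fell and 0 rose: Egr1 fell by 0.78, Fos by 0.67 and Fosb by 0.60. None of the list passed in IgM cells, IgG cells, thinned cells, the matched draw or with at most 10% mitochondrial or 25000 UMIs. In the matched draw Egr1 stood at -0.34, Fos at -0.54 and Fosb at -0.31, and without the memory-marker cluster and with DESeq2 Fos alone passed. None of the 9 tested genes of light chain recombination and receptor editing passed, and their median was -0.11. Of 10 class II antigen presentation genes, H2-Aa rose by 0.36 and H2-Eb1 by 0.27, while Ciita, the class II transactivator, fell by 0.50. None passed in the matched draw, where H2-Aa stood at 0.025, H2-Eb1 at 0.11 and Ciita at -0.23, nor in IgG or thinned cells, and H2-Aa alone passed with at most 25000 UMIs.

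Among cell cycle genes, calls were mostly of G2/M genes. Of 20 G2/M genes, 5 fell in lambda cells, beside 1.37% lower over all genes, and 0 rose, with a median of -0.23: Cenpf fell by 0.65, Cenpe by 0.55, Kif23 by 0.48, Mki67 by 0.39 and Top2a by 0.30. Mki67, the proliferation marker and also the 1 called gene of the 11 dark zone genes, had 1339 and 1255 CPM in lambda cells and 1715 and 1681 CPM in kappa cells. The count of the 20 that fell was 3 in the matched draw, 9 in that draw without the memory-marker cluster and 0 with cells of at most 25000 UMIs, with or without that cluster. The median of the 20 was -0.36 in the matched draw and -0.325 in that draw without the cluster. It was -0.25 with at most 25000 UMIs, -0.20 with these without the cluster, -0.34 with at most 10% mitochondrial UMIs and -0.27 in thinned cells. With cells thinned to 3300 UMIs Mki67 alone passed. In IgG cells none passed, 10 of the 20 were above 0 and the median was -0.015. Of 20 S phase genes 1 rose, Tipin by 0.42, and 18 had a log2 fold change above 0. Tipin did not pass in thinned cells, IgG cells, the matched draw or with at most 25000 UMIs. Of 18 light zone genes the paralogs Bcl2a1b and Bcl2a1d, survival genes of the Bcl2 family whose near-identical reads may be shared, rose by 0.98 and 1.13, and the median was 0.06. Both passed in the matched draw and with at most 25000 UMIs, and neither passed in thinned or IgG cells.

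Several secretory and class switching genes rose. Of 16 unfolded protein response and secretion genes 3 rose, beside 2.76% higher over all genes, Pdia4 by 1.201, Pdia6 by 0.63 and Sec61b by 0.55, and 0 fell. Of 10 plasmablast markers, 9 tested, Derl3 rose by 0.92 and Mzb1 by 0.50. Of 14 class switching genes Apex1 rose by 0.68 and Exo1 by 0.71, both enzymes of DNA repair, and the median was 0.06. Of these secretion, plasmablast and class switching genes Pdia4 and Apex1 passed in the matched draw, and none passed in thinned cells or in IgG cells. With at most 25000 UMIs Mzb1 alone of them passed. Of 13 apoptosis genes 3 rose, Bax by 0.51 beside the 2 Bcl2a1 genes. Of 7 dissociation stress genes Hspe1 rose by 0.60. Derl3, Bax and Hspe1 did not pass in the matched draw, in thinned or IgG cells or with at most 25000 UMIs. In the matched draw without the memory-marker cluster Apex1, Exo1, Derl3 and Hspe1 passed, and Pdia4, Pdia6, Sec61b, Mzb1 and Bax did not. In thinned cells without that cluster Mzb1, Sec61b and Hspe1 passed. The nucleolar gene Npm1 and the spermidine synthase gene Srm, named after their values were seen, rose by 0.57 and 0.93, and in library 2 a single lambda cell held 485 of 2458 Npm1 UMIs and 73 of 211 Srm UMIs.

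Of 13 mitochondrially encoded genes, 11 fell in lambda cells, by 0.35 to 0.56. mt-Co3, a subunit of cytochrome oxidase named after its values were seen, had 20804 and 20058 CPM in lambda cells and 28679 and 31521 CPM in kappa cells. The mitochondrial share is made of these same genes, so their fall restates the lower share of lambda cells given above. None of the 11 passed once the kappa cells were drawn to the mitochondrial share of the lambda cells, and 5 did in that draw without the memory-marker cluster. Such a draw removes most of their difference by design, so losing these calls is no separate result. Of 93 cytosolic ribosomal protein genes 18 rose, beside 2.76% higher over all genes, and 0 fell, with a median of 0.17. None passed in the matched draw (89 tested, median 0.077), with at most 10% mitochondrial UMIs (median 0.037) or in IgG cells, and 5 did in thinned cells.

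**Figure D5:**
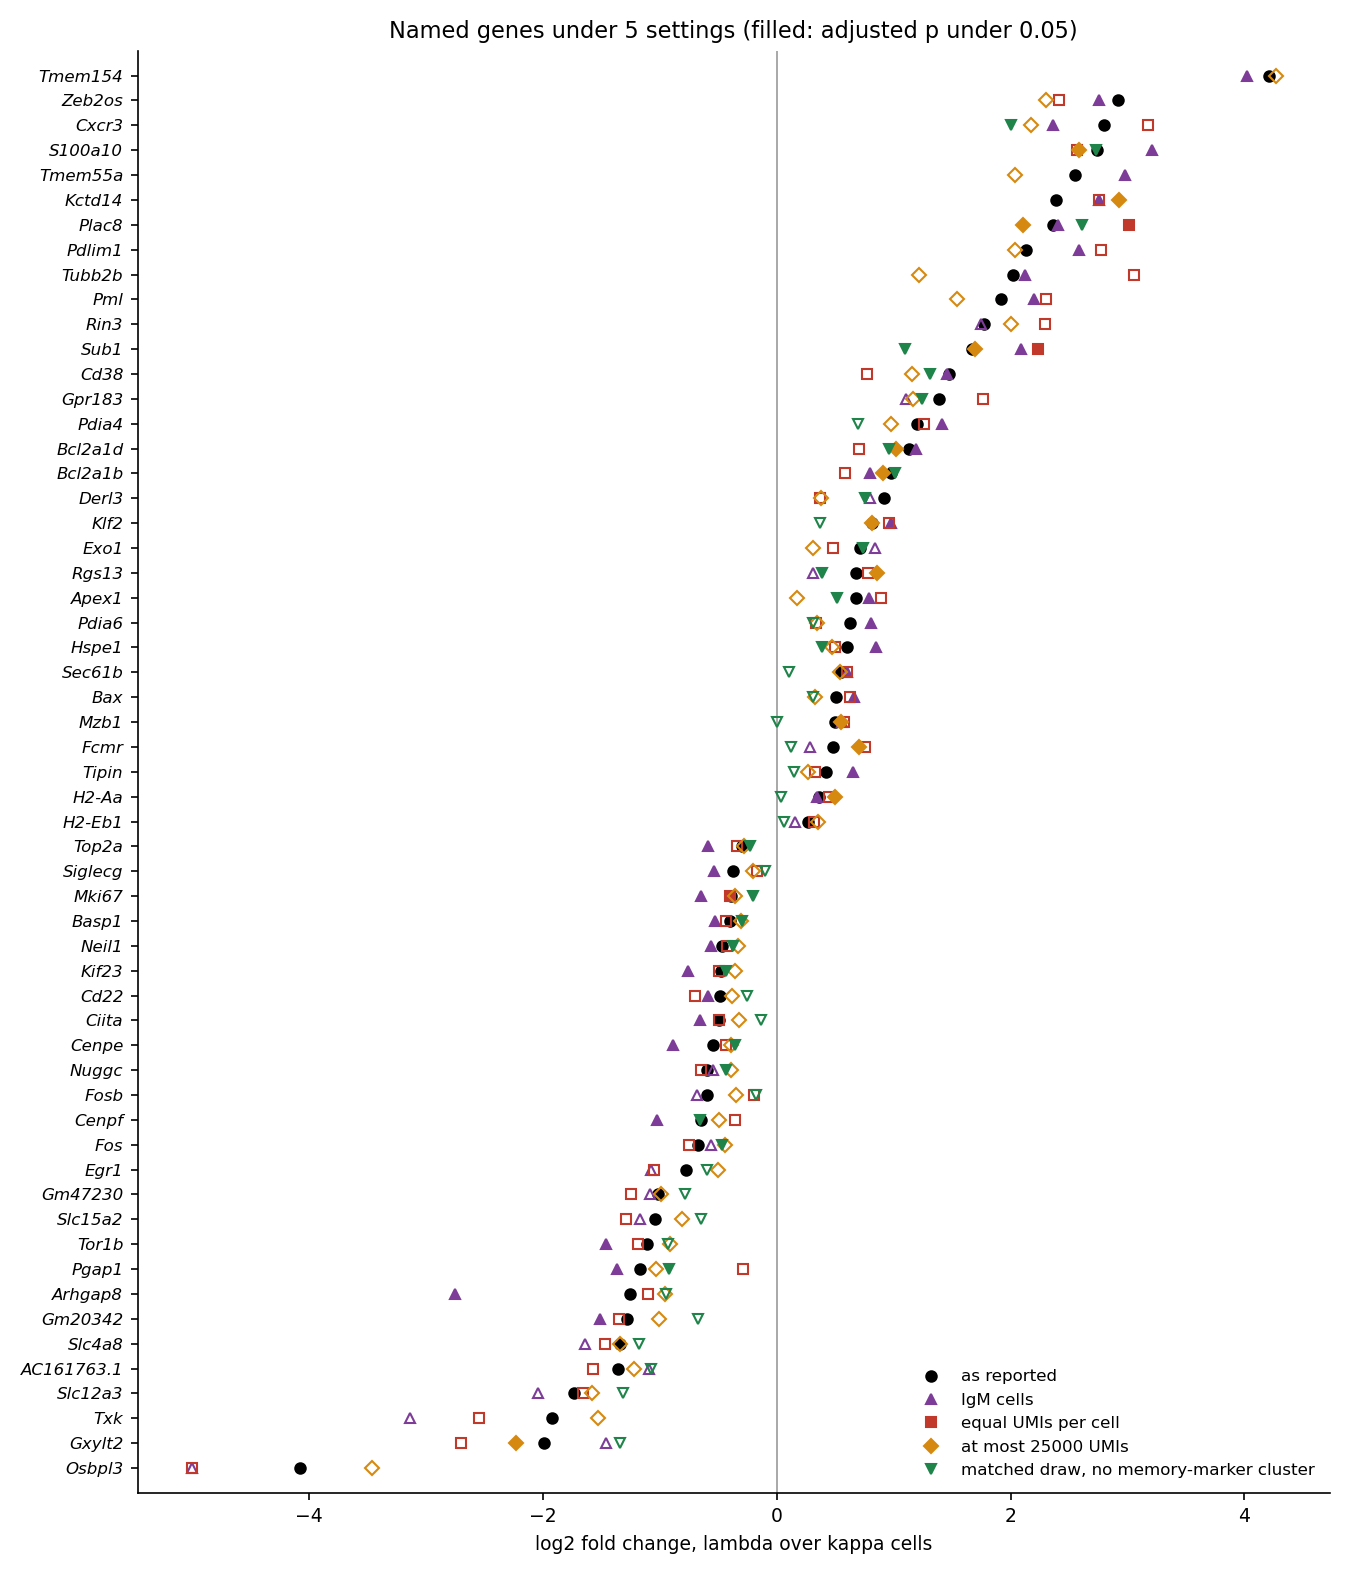
Log2 fold change, lambda over kappa cells (x axis), of the genes called at the extremes and of the called list genes named in the text (y axis), in the fit as reported and under 4 other settings, with filled symbols for an edgeR adjusted p under 0.05 and Osbpl3 values beyond the left end drawn at that end. A lambda over kappa direction is kept by most genes, while the symbols of thinned cells and of cells of at most 25000 UMIs are mostly open.

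Across 7 settings (thinned cells, thinned cells without the memory-marker cluster, cells of at most 25000 UMIs with and without that cluster, all cells without it, and the matched draw with and without it), 4 genes passed every time with the same sign. These were Gm30211 and Lpp, lower in lambda cells, and Ly6d and Tmsb4x, higher in them, and they are named after their values were seen. Gm30211 overlaps Igkc, whose counts chose the classes, so its passing in any setting is no separate support. The settings reuse the same cells, and all but the thinned cells were chosen after seeing the data. Lpp, a cell adhesion protein gene, had 110.5 and 103.1 CPM in lambda cells and 210.0 and 193.4 CPM in kappa cells (log2 fold change -0.92 ± 0.12, edgeR adjusted p = 0.000502). At 3300 UMIs per cell it was seen in 23 of 76 and 19 of 66 lambda cells and in 45.0% and 44.9% of kappa cells. Ly6d, a surface protein gene of early and some mature B cells, had 186.5 and 259.8 CPM in lambda cells and 78.2 and 95.3 CPM in kappa cells (log2 fold change 1.36 ± 0.11, edgeR adjusted p = 1.0e-05). It was seen in 19 of 76 and 24 of 66 thinned lambda cells and in 14.3% and 15.2% of kappa cells. Tmsb4x, the thymosin beta-4 gene, had 5714 and 5084 CPM in lambda cells and 3378 and 3773 CPM in kappa cells (log2 fold change 0.59 ± 0.08, edgeR adjusted p = 0.000537). Outside these 7 settings, IgG cells kept the call of Gm30211 and not the others: Lpp stood at -0.56 and Ly6d at 0.71 (edgeR adjusted p = 0.905 for both), and Tmsb4x at 0.19 (0.961). With at most 10% mitochondrial UMIs Tmsb4x stood at 0.24 and missed the threshold (edgeR adjusted p = 0.133).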

How the data were processed

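Droplet-based single-cell RNA-seq (10x Genomics 3′ version 3 kit, per the labels' protocols) was deposited as whole-number UMI counts per gene and barcode for 2 libraries of 1 group. Counts were made with Cell Ranger 3.0.2, per the file headers, on mm10, per the submitters' processing notes. The members and gene lists were chosen with earlier results of these data known.

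From the counts, 392 immunoglobulin genes were left out of gene sums, CPM and tests, and counts were summed per library and class. edgeR 4.0.16 (R 4.3.3; TMM scaling, filterByExpr, quasi-likelihood test with Benjamini-Hochberg adjustment over all genes tested) had library as a block, because both classes come from the same library; the classes' deviations between libraries correlated at r = 0.145 over 11479 genes, and the fit has 1 residual degree of freedom. With the block, p-values rest on how far the lambda to kappa difference varied between these libraries, which may be technical. The quasi-likelihood fit also draws this spread toward that of other genes. Tested on simulated data with the same library sizes, this comparison recovered 16%, 72%, 92% and 100% of genes changed 1.5-, 2-, 4- and 8-fold (50 genes each of 11497), with 0 false calls. The simulation changed only genes of at least 10 CPM in kappa cells and gave all genes the same spread. It held no sums dominated by a single cell, so its 0 false calls do not cover such genes. The named genes are the 12 largest and 12 smallest log2 fold changes among called genes of 1 sign in both libraries, called list genes and the gate genes, with genes within 100 kb of a light chain gene given apart. Log2 fold changes are on edgeR's scale, and CPM values of single genes are TMM-scaled, and those summed over a list are not. Clustering used scanpy 1.11.5 (2000 variable genes, 30 principal components). Doublets were not removed; an alternative leaves out the 6% of cells with the highest Scrublet scores. DESeq2 1.42.0 was an alternative. Per library 79 and 71 lambda cells limit precision. UMI counts of Iglc2 and Iglc3, and of Bcl2a1 paralogs, may be shared. Results of a few list genes are not reported here.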

Additional observations from a re-analysis of the deposited data

How the results depend on the processing

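The count of 474 genes called depended on the setting. It was 36 with at most 10% and 186 with at most 20% mitochondrial UMIs, 2129 at a light chain share of 95%, 311 with at least 100 light chain UMIs and 723 without the highest Scrublet scores. It was 44 with thinned cells, 2 in IgG cells (542 at an unadjusted p under 0.05), 95 with kappa cells drawn to isotype and depth, 1 with no replicate block, 815 with no filter and 307 with DESeq2, which gave 2800 genes an adjusted p. Settings chosen after seeing the data gave 57 with the draw on isotype, depth and mitochondrial share, 159 with that draw without the cluster of memory and naive B cell markers, 52 with cells of at most 25000 UMIs, 71 with these without that cluster, 193 with thinned cells without it and 1041 at a mean CPM of at least 10. Without the block 66 of 71 gene results kept their sign and missed the threshold, and no log2 fold change of the 71 moved by more than 0.044. With 1 library left, no residual degrees of freedom remained, and genes have values only.

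The mean IgG difference stayed negative in all alternatives. It was -22.0 and -17.8 points with at most 10% and 20% mitochondrial UMIs, -35.2 with at least 100 light chain UMIs, -15.6 with at least 20 heavy chain UMIs, -22.1 at a heavy chain share of 95%, -17.3 without the cluster and -14.2 with the draw on depth and mitochondrial share. Single libraries gave -20.2 to -18.5. The dark zone difference was -4.32 with at least 100 light chain UMIs, -3.86 with another thinning seed and -11.1 in IgG cells, and -1.93 to 4.81 in single libraries. The lambda share was 3.19% and 1.84% with at most 10% and 20% mitochondrial UMIs, 1.82% at a share of 95%, 1.78% with at least 100 light chain UMIs and 1.23% without the cluster, with 1.25% to 1.33% in single libraries. The cause of these moves was not tested.

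Named genes that turned sign did so without passing. In IgG cells the log2 fold change was -0.0092 for Tipin, -0.22 for Klf2, -0.23 for Cd38, -0.41 for Tubb2b, -7.38 for Pdlim1, -8.44 for Plac8 and -7.83 for S100a10, the last 3 with 0 lambda UMIs in IgG cells, so that their fitted values give no size. It was -0.037 for Pdlim1 with cells of at most 25000 UMIs without the cluster and -0.00076 for Mzb1 in the draw without it. The number of lambda cells limits every value: 79 and 71 stood behind the sums as reported, 77 and 65 without the cluster, and 29 and 24 in IgG cells. In the draw on isotype, depth and mitochondrial share, the 79 and 497 kappa cells were a further limit.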
